A study of Mus musculus with 4 samples.

Results

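The proteasome genes of the mouse hippocampal CA1 field were examined by name: every probe set with 1 platform gene symbol that begins with Psma, Psmb, Psmc, Psmd or Psme and a number was taken. The pattern matched 53 probe sets for 42 of the 8251 genes that the array names singly. They covered 7 alpha ring genes, 7 beta ring genes, 3 immune beta genes, 6 base ATPases, 3 other base subunits, 8 lid subunits, 3 base assembly chaperones and 3 activators. The other 2 genes, Psmc3ip and Psme3ip1, carry the name of a partner and encode no proteasome subunit, so they are given apart, which leaves 40 genes and 51 probe sets. Psma8, Psmb11 and Psme2 had no probe set with 1 symbol and were not analysed here.

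Total RNA came from the CA1 region of young male C57BL/6J mice that an experimenter handled and that received nothing else. Single-channel expression arrays were made at 4 times, 1, 2, 4 and 6 hr, with 1 array each, counted from the last shock of a separate set of mice whose arrays were not analysed here. All 4 groups share genotype, sex and handling and differ by label in the hour of extraction alone. The labels do not say how many mice an array represents, so an SD over the 4 arrays (n = 4) is a spread between times and arrays, not between replicates. An effect of the hour cannot be told apart from any other difference between the arrays.

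The proteasome is the barrel-shaped protease that degrades proteins tagged with ubiquitin. Its core stacks outer rings of alpha subunits, which form the gate, on inner rings of beta subunits, some of which cut the substrate. A cap made of a base, whose ATPases unfold the substrate, and a lid, which removes ubiquitin, feeds the core. Separate activators of the Psme family can bind in place of the cap. In cells exposed to interferon the catalytic beta subunits Psmb5, Psmb6 and Psmb7 are replaced by Psmb8, Psmb9 and Psmb10. In neurons, proteasome activity takes part in the turnover of synaptic proteins.

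Promoter sequences were compared because several proteasome genes are known to share upstream control. RefSeq windows (GRCm38.p6) were matched for 34 of the 40 genes, and the 250 bases before each start were searched on both strands for 5 motifs. The ETS core CCGGAAG, a motif of housekeeping promoters, was in 11 of 34 proteasome genes (32.4%), against 7.83% of 27025 genes and 15.7% of the 4560 genes that were also tested on the array. The antioxidant response element core TGACNNNGC, the type of site through which Nfe2l1 acts on proteasome genes, was in 5 of 34, namely Psmb5, Psmb6, Psmc6, Psmd9 and Psmd12 (14.7%, against 11.5% and 13.8%). A CCAAT box was in 13 of 34 (38.2%, against 37.5% and 40.3%). The interferon motifs were in few genes. TTCNNNGAA, a GAS element, was in Psmb8 alone, a smaller share than in either background (2.94%, against 8.13% and 6.47%). A core of the interferon-stimulated response element (GAAA, any 2 bases, GAAA) was in Psmb3, Psmd4 and Psmd9. That was a larger share than in either background, though it rests on 3 genes (8.82%, against 3.46% and 2.87%). These matches are letters in a window and not bound sites.

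Below, 120 bases before the start are given for a catalytic subunit (Psmb5), for its immune replacement (Psmb8), for a second immune subunit (Psmb9), and for the genes with the smallest unadjusted p for a slope over the hours (Psmd9, Psmd11 and Psmd12). Capitals mark TGACNNNGC in Psmb5 and Psmd9, TTCNNNGAA in Psmb8, the reverse of CCAAT in Psmb9 and the reverse of CCGGAAG in Psmd11 and Psmd12.
Psmb5 (chr14:54617996-54618115, minus strand): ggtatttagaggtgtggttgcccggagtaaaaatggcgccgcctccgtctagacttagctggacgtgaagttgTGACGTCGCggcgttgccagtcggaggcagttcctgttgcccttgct
Psmb8 (chr17:34198075-34198194, plus strand): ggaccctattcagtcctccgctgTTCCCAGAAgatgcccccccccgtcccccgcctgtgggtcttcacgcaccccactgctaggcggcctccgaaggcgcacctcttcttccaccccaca
Psmb9 (chr17:34187331-34187450, minus strand): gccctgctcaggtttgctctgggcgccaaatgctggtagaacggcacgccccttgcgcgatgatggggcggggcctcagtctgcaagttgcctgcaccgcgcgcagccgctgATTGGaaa
Psmd9 (chr5:123228070-123228189, plus strand): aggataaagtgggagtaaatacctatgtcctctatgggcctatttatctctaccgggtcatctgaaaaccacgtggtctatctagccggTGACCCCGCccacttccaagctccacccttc
Psmd11 (chr11:80428495-80428614, plus strand): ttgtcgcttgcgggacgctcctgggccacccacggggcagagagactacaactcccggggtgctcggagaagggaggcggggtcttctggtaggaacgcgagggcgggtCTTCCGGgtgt
Psmd12 (chr11:107479408-107479527, plus strand): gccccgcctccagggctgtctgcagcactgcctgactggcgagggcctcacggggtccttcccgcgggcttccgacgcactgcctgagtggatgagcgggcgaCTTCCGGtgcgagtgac
The motif begins 47 bases before the start in Psmb5, 97 in Psmb8, 8 in Psmb9, 31 in Psmd9, 11 in Psmd11 and 17 in Psmd12. In the RefSeq order of genes on chromosome 17, Psmb9 lies next to Tap1, and Psmb8 lies between Tap1 and Tap2, the genes of the peptide transporter for antigen presentation.

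Most of the proteasome was read brightly in CA1. The deposited values are linear intensities, and values under 54.7, the 25th percentile of all of them, were set to that floor before log2 was taken. A probe set was tested when its mean log2 value was above the 40th percentile, an intensity of 114, a filter that 42 of 51 proteasome probe sets passed, for 36 of 40 genes. Of these, 36 had a mean log2 value above the median of the 7453 probe sets tested. The median of the mean intensities was 1207 over the 42, and 460 over all tested. By class it was 2783 for the alpha ring, 1280.4 for the beta ring, 1125 for the base ATPases, 707 for the lid, 490.4 for the base chaperones and 378 for the activators.

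These medians describe signals and give no order of abundance, because brightness depends on the probes as well as on the transcript. The same gene shows this. The 3 probe sets of Psmb1, a beta ring subunit, averaged 5175 ± 507, 1280.4 ± 243 and 110 ± 27.8 (SD, n = 4). Of the 3 for Psmb4, another beta ring subunit, 1 averaged 3899 ± 249, 1 averaged 101 ± 39.1 and 1 lay under the floor on all 4 arrays. Likewise Psmc4, an ATPase, and Psmd2, the scaffold that holds substrate shuttles, belong to every cap but averaged only 112 ± 57.6 and 88.1 ± 73.0 (SD, n = 4). With Psmb8 and Psmb9 they are the 4 genes with no tested probe set. Of the 42 tested probe sets, 10 carry a platform suffix marking probes that may match other transcripts or were chosen under relaxed rules. These include the only probe sets of Psmd9 and Psmd12 and the dimmest of Psmd11, whose slopes are given below. They also include the only tested probe sets of Psma3, Psmb4 and Psmb7, the brighter one of Psmb5 and all 3 of Psmc3.

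**Figure D1:**
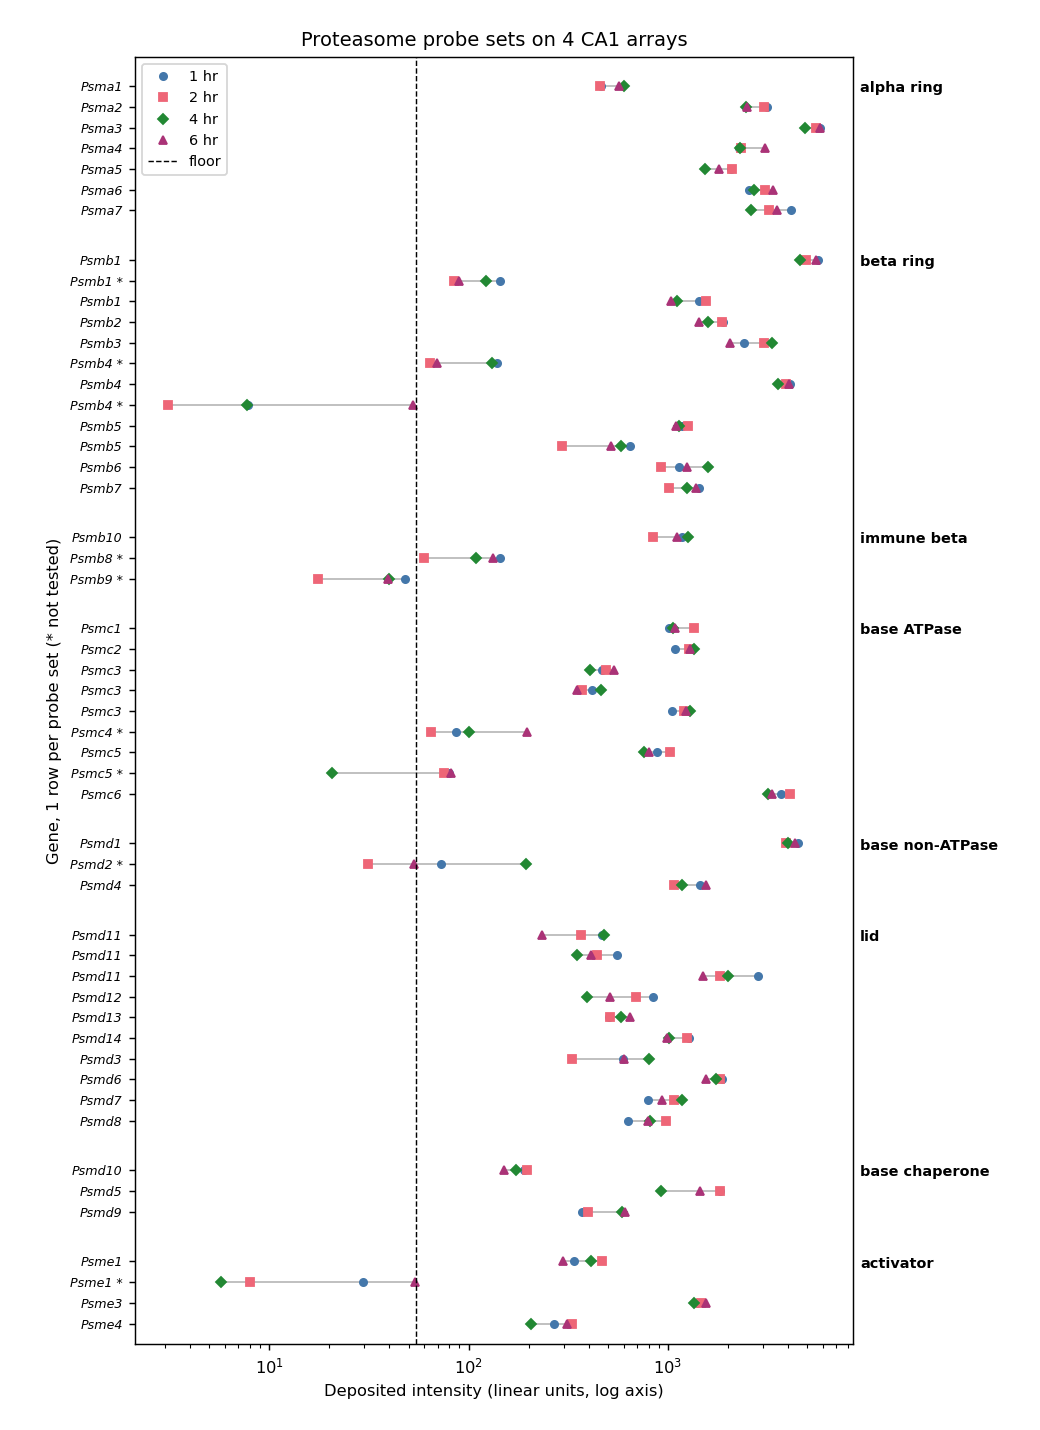
Deposited intensity (log axis) of the 51 proteasome probe sets, 1 row each and grouped by class, with 1 symbol per array (1, 2, 4 and 6 hr), a grey line from the lowest to the highest array and the floor of 54.7 dashed; stars mark the 9 probe sets not tested. Within most rows the 4 arrays lie close together, whereas probe sets of 1 gene, such as the 3 of Psmb1, lie far apart.

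No proteasome gene changed with the hour past the threshold. A straight line over the hours, fitted with limma to all 7453 probe sets, called 0% of them at a Benjamini-Hochberg adjusted p under 0.05, and 0 of the 42 proteasome probe sets. At an unadjusted p under 0.05 there were 382 of 7453 and 0 of the 42. The adjusted p of the proteasome probe sets ran from 0.965 to 1.00. Slopes were below 0 for 25 of the 42 (59.5%, against 49.1% of all tested), and their median was -0.006 (log2 per hr) against 0.002. Under limma with an intensity-dependent robust prior there were again 0 calls, with 330 of 7453 and 2 of 42 at an unadjusted p under 0.05.

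The nearest to an ordered rise was Psmd9, a chaperone that helps assemble the ATPase ring. Its probe set had intensities of 368, 395, 587 and 612 from 1 to 6 hr. The 4 and 6 hr arrays lay above the earlier ones, and the fitted slope was 0.16 ± 0.06 (log2 per hr, SE), with a limma adjusted p of 0.965. Psmd13, a lid subunit, read 503, 509, 578 and 645 in the same order, and its fitted slope was 0.08 ± 0.06 (limma adjusted p of 1.00). Its step also came after 2 hr. These 2 were the only proteasome probe sets in strictly rising order (2 of 42), where 4.00% of all tested were.

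Strictly falling order was held by 3 of the 42, against 3.37% of all tested. Psmb2, a beta ring subunit, read 1890.2, 1863, 1589 and 1426 at 1, 2, 4 and 6 hr. Psmd14, the lid enzyme that cuts ubiquitin chains from the substrate, read 1268, 1250.1, 1013 and 985, and Psmd6, a structural lid subunit, read 1867, 1824, 1737 and 1546. In each of the 3 the 1 and 2 hr arrays differed by less than the later arrays differed from them, and no fold from highest to lowest exceeded 1.33. After an alternative scaling to a common array median, 1 probe set was in rising and 1 in falling order.

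No tested proteasome probe set stood 2-fold apart on an array. None of the 42 lay at least 2-fold above each of the other 3 arrays, as 1.36% of all tested did, and none lay 2-fold below, as 6.37% did. At a smaller distance of 1.5-fold, 0 of 42 lay above (7.35% of all tested) and 4 of 42 lay below (16.4%). These 4 were probe sets of Psmb5 and Psmd3 at 2 hr, Psmd5 at 4 hr and Psmd11 at 6 hr. Without the 2 hr array, the Psmd11 probe set lay 2-fold below the others at 6 hr. Without the filter on mean level, 1 proteasome probe set stood 2-fold apart: that of Psmd2 read 195 at 4 hr, against 73.1 at 1 hr and under the floor at 2 and 6 hr. Psmc4, also too dim to be tested, read 195 at 6 hr and 64.8 to 100 on the other arrays.

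The alpha ring genes gave bright signals, with a median fold from lowest to highest array of 1.33. All but Psma1 had a mean intensity above 1500, and all tested probe sets of that brightness had a median of 1.31-fold. Psma3 was brightest, at 5762, 5525, 4887 and 5800.4 at 1, 2, 4 and 6 hr, and Psma1 dimmest, at 461, 455, 604 and 565. Psma1 was also the only one of the 7 above the mean of the other arrays at 4 hr. Psma7 had the widest range, from 2607 at 4 hr to 4149 at 1 hr, 1.59-fold. Psma4, next to Psmd9 and Psmd13 among the upward slopes by unadjusted p, read 2271, 2323, 2288 and 3066, so that the 6 hr array alone stood higher; its slope of 0.08 (log2 per hr) was 0.0015 without that array. Psma2 (2455 to 3151), Psma5 (1542 to 2101) and Psma6 (2562 to 3345) had ranges of 1.28-fold to 1.36-fold. At 4 hr the other 6 genes were below the mean of the other arrays, as were 3446 of all 7453 tested probe sets. The class median there was -0.22 log2 units, where all tested probe sets had a median of 0.04. The alpha ring medians for the 1, 2 and 6 hr arrays were 0.10, 0.02 and 0.12.

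In the beta ring, 7 of 9 tested probe sets lay above the mean of the other arrays at 1 hr, with a median of 0.18 log2 units. Among all 7453 tested, 3972 lay above it there. The 9 probe sets are of 7 genes, and with 1 probe set per gene the beta ring median at 1 hr was 0.0966. The 1 hr array was highest for 5 of the 9, against 25.8% of all tested. Psmb1, a structural subunit, read 5676, 4898, 4606 and 5522 at 1, 2, 4 and 6 hr through its brightest probe set. Psmb4, also structural, read 4093, 3889, 3551 and 4063. Both were high at 1 hr and lowest at 4 hr. The second tested Psmb1 probe set read 1427, 1543, 1115 and 1036, highest at 2 hr instead and lowest at 6 hr. Psmb3, a structural subunit, read 2398, 3019, 3307 and 2044, high at 2 and 4 hr and low at 1 and 6 hr.

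The constitutive catalytic subunits were all tested. Psmb5, which carries the chymotrypsin-like activity, read 1175, 1265, 1131 and 1092 at 1, 2, 4 and 6 hr through its brighter probe set, a 1.16-fold range. Its dimmer one read 643, 295, 582 and 521, low at 2 hr, the array on which the brighter one was highest. Psmb6, of the caspase-like activity, read 1138, 921, 1594 and 1252, highest at 4 hr. Psmb7, of the trypsin-like activity, read 1423, 1014, 1243 and 1381. Psmb6 and Psmb7 had their lowest value at 2 hr, as 29.0% of all tested probe sets did.

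The immune replacements differed among themselves in signal. Psmb8 read 144, 59.6, 108 and 132 at 1, 2, 4 and 6 hr, close to the floor at 2 hr, and was not tested. Psmb9 lay under the floor on all 4 arrays. Psmb10 read 1179, 838, 1264 and 1109.7, and was tested, with a fitted slope of 0.03 ± 0.08 (log2 per hr, SE) and a limma adjusted p of 1.00. Psmb8 and Psmb10 were lowest at 2 hr, and values under the floor give Psmb9 no order. Since no detection calls were used here, whether Psmb8 and Psmb9 were above background is unknown. In bulk tissue, fewer cells of a type and less RNA per cell cannot be told apart.

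**Figure D2:**
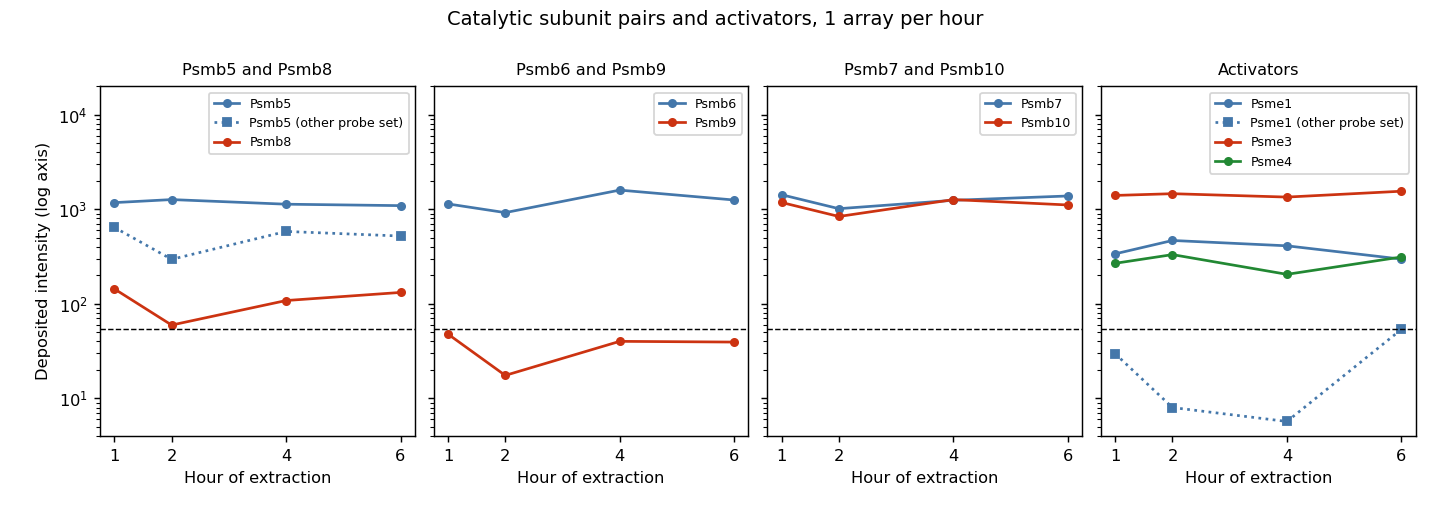
Deposited intensity (log axis) against the hour of extraction for each constitutive catalytic subunit with its immune replacement, and for the activators; lines join 1 array per hour, dotted lines are second probe sets and the dashed line is the floor of 54.7. Psmb8 and Psmb9 lie near or under the floor while Psmb10 lies at 838 to 1264.

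The base ATPases, which form the unfolding ring, had a median SD of 0.17 log2 units over the 4 arrays (7 probe sets), against 0.21 and 0.22 for the alpha and beta rings. Psmc6 read 3674, 4114, 3182 and 3324 at 1, 2, 4 and 6 hr, and Psmc1 read 1011, 1344, 1064 and 1081, both highest at 2 hr. Psmc5 read 882, 1021, 756 and 805, again highest at 2 hr, and its untested probe set read 75.0 to 81.3 at 1, 2 and 6 hr and lay under the floor at 4 hr. Psmc2 read 1079, 1281, 1346 and 1283, lowest at 1 hr. The 3 Psmc3 probe sets did not share an order: the brightest read 1043, 1199, 1284 and 1228, another 464, 487, 405 and 539, and the dimmest 417, 371, 462 and 349. Their highest arrays were 4, 6 and 4 hr. The class lay above the mean of the other arrays in 6 of 7 probe sets at 2 hr, as did 3652 of all 7453 tested. Its median there was 0.06 log2 units, which became 0.28 with 1 probe set per gene. The other base subunits were Psmd1, a large scaffold, at 4503, 3921, 4014 and 4334, and Psmd4, a ubiquitin receptor, at 1453, 1077, 1173 and 1544. Both were lowest at 2 hr, on the array where 3 ATPases were highest.

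The lid was the most variable of the classes with 7 or more tested probe sets, with a median SD of 0.27 log2 units over its 10 probe sets, near the 0.29 of all tested. Psmd3, a structural subunit, had the widest range of all tested members, at 593, 332, 807 and 605 at 1, 2, 4 and 6 hr, 2.43-fold. Psmd12, also structural, read 842, 692, 393 and 512, lowest at 4 hr, and its fitted slope was -0.17 ± 0.09 (log2 per hr, SE), with a limma adjusted p of 1.00. That slope was -0.37 without the 6 hr array and -0.11 without the 1 hr array. Psmd3 and Psmd12 thus went opposite ways at 4 hr, by 0.71 and -0.77 log2 units from the other arrays.

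Psmd11, whose product helps hold lid and base together, was measured by 3 probe sets. The brightest read 2830.0, 1825, 1997 and 1498 at 1, 2, 4 and 6 hr, high at 1 hr, with a fitted slope of -0.14 ± 0.07 (log2 per hr, SE) and a limma adjusted p of 0.996. Without the 1 hr array its slope was -0.07. The second read 555, 442, 350 and 410, and the dimmest read 469, 368, 475 and 233. All 3 had a slope below 0, but their lowest arrays were 6, 4 and 6 hr, and the dimmest had its top value at 4 hr. The dimmest had a fitted slope of -0.16, which was 0.03 with the 6 hr array left out. Psmd7 (796 to 1181) and Psmd8 (634 to 974), both structural, were lowest at 1 hr. At 6 hr 8 of 10 lid probe sets lay below the mean of the other arrays (Psmd8 was practically level with it), with a median of -0.17 log2 units. Among all 7453 tested, 3558 lay below it at 6 hr.

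Of the chaperones of the base, Psmd5 read 1827, 1831, 924 and 1446 at 1, 2, 4 and 6 hr, low at 4 hr, more than 1.5-fold below each other array. Psmd9, described above, was high at 4 and 6 hr. Psmd10, known also as an oncoprotein that binds the retinoblastoma protein, read 189, 197, 173 and 151. The 3 chaperones therefore shared no order over the arrays. The 2 name matches that are no subunits were Psmc3ip, a meiotic recombination factor, under the floor on all 4 arrays, and Psme3ip1, which binds Psme3, at 657, 985, 571 and 790.5.

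Among the activators, Psme3, the form found mainly in nuclei, was brightest and steadiest, at 1399.5, 1460.0, 1344 and 1550.4 at 1, 2, 4 and 6 hr, 1.15-fold. Psme1, the interferon-inducible subunit, read 338, 468, 410 and 297 through its tested probe set, and its other probe set lay under the floor on all 4 arrays. Psme4, the large single-chain activator, read 268, 331, 205 and 313. All 3 lay above the mean of the other arrays at 2 hr, by 0.03 to 0.44 log2 units, the opposite of Psmb10, which lay 0.50 below it there (-0.50). Among all 7453 tested, 3652 lay above it at 2 hr.

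**Figure D3:**
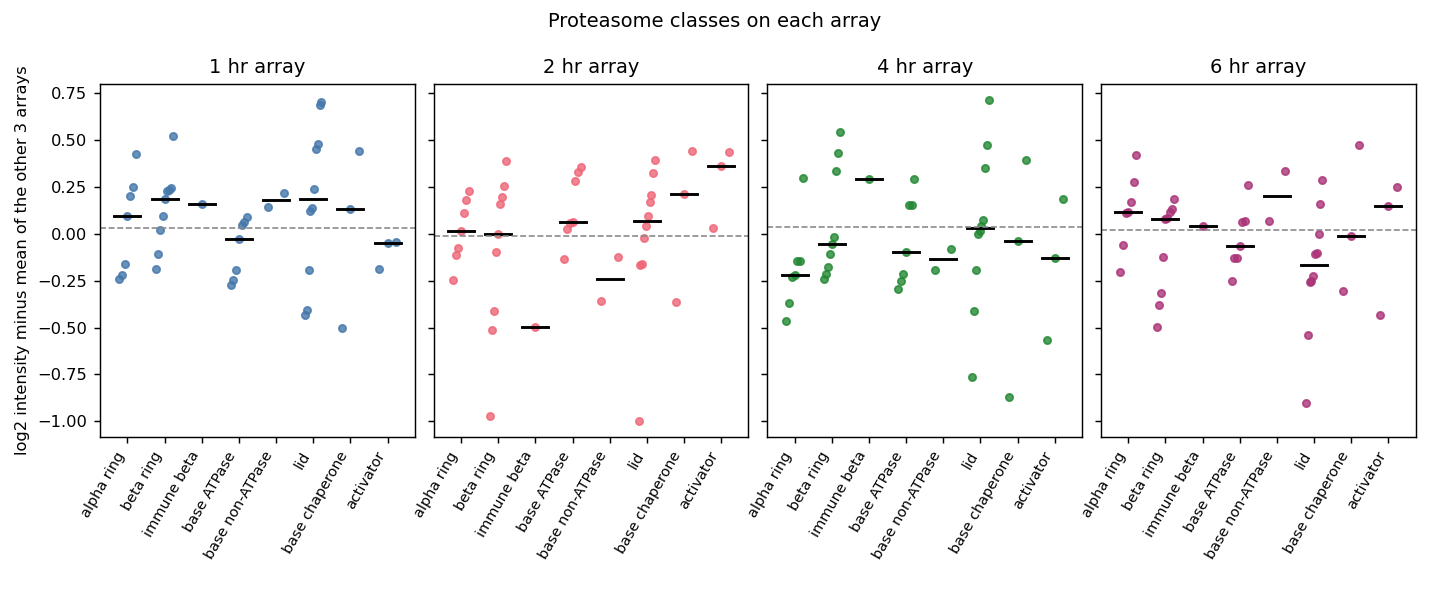
Log2 intensity of each tested proteasome probe set minus its mean on the other 3 arrays, by class, 1 panel per array; black bars are class medians and the dashed line is the median of all 7453 tested probe sets. At 4 hr 6 of 7 alpha ring points lie below 0, at 6 hr 8 of 10 lid points do, and at 2 hr all 3 activators lie above 0. Among all 7453 tested, 3446 lie below 0 at 4 hr, 3558 below at 6 hr and 3652 above at 2 hr.

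Read over all 42 probe sets, no array was far from the others. The median difference from the other 3 arrays was 0.10, 0.05, -0.09 and 0.02 log2 units for the 1, 2, 4 and 6 hr arrays, against 0.03, -0.01, 0.04 and 0.02 for all tested. The highest value fell at 1 hr for 13 of 42 probe sets (25.8% of all tested), at 2 hr for 11 (24.4%), at 4 hr for 10 (26.5%) and at 6 hr for 8 (23.2%). The lowest value fell at 1 hr for 9 (24.2%), at 2 hr for 8 (29.0%), at 4 hr for 14 (24.3%) and at 6 hr for 11 (22.3%). The largest excess over the background was thus the 14 lowest at 4 hr, 33.3% of the 42. By class these were 4 of 7 in the alpha ring, 2 of 9 in the beta ring, 3 of 7 ATPases, 2 of 10 in the lid, 1 of 3 chaperones and 2 of 3 activators.

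The 2 hr array had the lowest median intensity, 173, against 198 to 204 on the others. Setting all arrays to a common median moved the median of all tested probe sets at 2 hr to 0.21 log2 units, and that of the proteasome to 0.27, so that the proteasome lay 0.06 above all tested. Relative to all tested probe sets the activators lay 0.37 above at 2 hr under that scaling, the alpha ring -0.26 at 4 hr and the lid -0.19 at 6 hr. Under quantile normalization these 3 differences were 0.47, -0.18 and -0.18. Their directions under quantile normalization were those of the deposited scale. A common median multiplies each array by a constant, so it could hardly change a difference from all tested probe sets. These 3 differences were not set in advance.

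Proteasome probe sets varied less than the array as a whole, and they were also brighter. The highest array exceeded the lowest by a median of 1.35-fold, against 1.56-fold for all tested, and 27 of 42 stayed within 1.5-fold (64.3%, against 44.9%). Among probe sets with a mean intensity of 1500 or more, the median was 1.31-fold for 15 proteasome and 1.31-fold for 1224 tested ones. Between 500 and 1500 it was 1.4-fold for 19 against 1.43-fold for 2253, and under 500 it was 1.58-fold for 8 against 1.84-fold for 3976. At 1500 or more, 73.3% of the proteasome probe sets stayed within 1.5-fold, fewer than the 80.6% of all tested, so the overall difference did not hold in the brightest range. A single array per hour gives no replicate against which to set these folds.

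**Figure D4:**
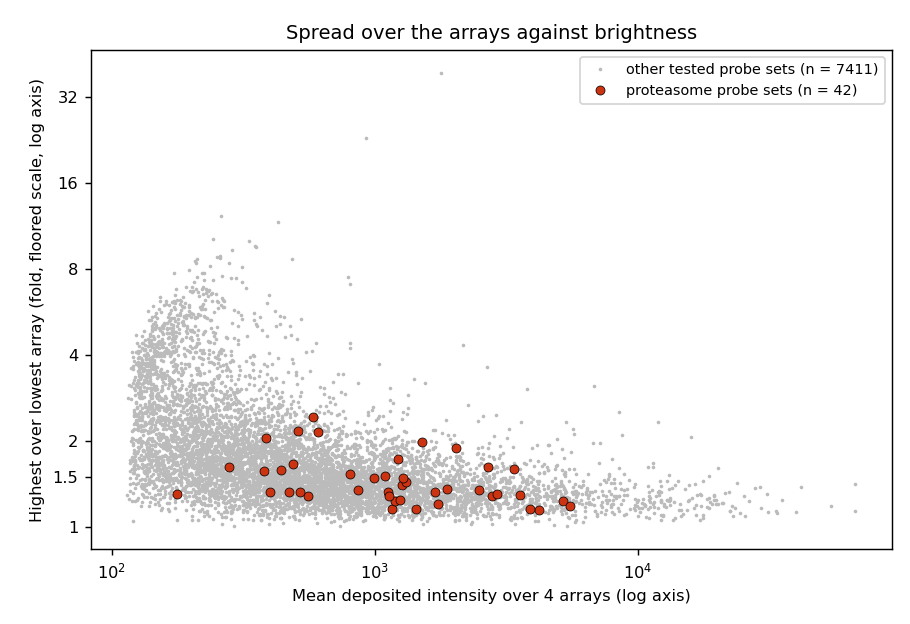
Fold from the lowest to the highest of the 4 arrays (floored scale, log axis) against mean deposited intensity (log axis) for 7453 tested probe sets, with the 42 of the proteasome in red. Proteasome points lie between 1.15-fold and 2.43-fold, among other probe sets of like brightness.

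Genes that assemble, regulate or feed the proteasome had no called slope either. Of 27 listed symbols 17 were on the array and tested, with 22 probe sets, some of them of the same gene. Slopes were above 0 for 7 and below for 15, where 49.1% of all tested were below. Of these 22 probe sets 0 were called and none stood 2-fold apart. Smallest in unadjusted p was a probe set of Bag6, a chaperone of misplaced proteins, at 475, 416, 685 and 790.2 at 1, 2, 4 and 6 hr (limma adjusted p = 0.963). The other 2 tested Bag6 probe sets had slopes of 0.07 and -0.01 (log2 per hr). Of 19 listed interferon and antigen processing symbols 15 were on the array and 7 were tested, with 10 probe sets, 0 called, 4 slopes above 0 and 6 below. Tapbp, the peptide-loading protein tapasin, had the smallest unadjusted p, through a probe set at 58.1, 130, 239 and 217 (limma adjusted p = 0.896). It and those of Ifngr1 and Ifngr2, the subunits of the interferon gamma receptor, stood 2-fold apart on an array, each below the others. Among all tested, 6.37% lay 2-fold below the other arrays and 1.36% above. This Tapbp probe set was low at 1 hr, while Ifngr1 and Ifngr2 lay under the floor at 4 hr and between 116 and 298 elsewhere. Their folds thus depend on the floor, and Ifngr1, with a mean of 126, was close to the filter. The other 2 tested Tapbp probe sets differed: 1 read 260, 167, 291 and 195, lowest at 2 hr, and 1 read 177, 317, 422 and 368, lowest at 1 hr.

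Tap1 and Tap2, which flank Psmb8, are named for their position, after their values were seen. Tap1 read 125, 99.9, 268 and 238 at 1, 2, 4 and 6 hr through one probe set and 215, 102, 215 and under the floor through another, so its sets did not share an order. Tap2 was above the floor at 2 hr alone, at 57.1.

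The tissue label was checked against markers. Intensities were summed over all marker genes of a list on the array, with the probe set of highest mean log2 for each gene, tested or not. All 5 CA1 pyramidal neuron markers were tested, and the list summed to 6884 to 8754. Microglial markers, 8 of 8 tested, summed to 7628 to 8944, and at 2 hr, where Psmb8 and Psmb10 were lowest, to 8488. Such sums weigh bright genes most. The median log2 difference of the 10 tested microglial probe sets from the other arrays was -0.20 at 2 hr. It was 0.06, 0.09 and 0.07 at 1, 4 and 6 hr. Choroid plexus markers, 3 of 3 tested, summed to 3689 at 4 hr, where the alpha ring was low, against 473 to 658 on the other arrays. Ttr, the transthyretin gene, stood 2-fold apart and made up most of that, at 3217 against 140.3 to 196. Kl, of the same list, stood 2-fold apart at 1 hr, low at 54.8 against 247 to 370. Oligodendrocyte markers (4 of 4 on the array tested) summed to 7035 at 6 hr, where the lid was low, against 8276 to 9607 on the other arrays. Endothelial markers (4 of 7 tested) summed to 1269 at 6 hr against 1671 to 1832. Members differed: a dimmer Mbp probe set was highest at 6 hr, at 841 (oligodendrocyte slopes: 3 above 0, 4 below). Kdr, an endothelial marker, read 267 at 6 hr against 115 to 135.5 (endothelial slopes: 1 above 0, 3 below). Blood markers (1 of 4 tested) summed to 2081 at 2 hr, where the activators were high, against 2654 to 4012. Hba-a1 made up most of that, at 1883 against 2444 to 3907. Alas2, dim and not tested, went the other way, at 103 at 2 hr against 57.3 or less elsewhere. CA3 markers (3 of 3 tested) summed to 3717 at 1 hr, where the beta ring was high, and to 2342.5 to 2629 elsewhere. Among them Nnat stood 2-fold apart at 1 hr, at 2015 against 744 to 982. Socs2 was highest at 2 hr, at 920.5, and Bok at 4 hr, at 1137.5. Astrocyte (4 of 4 tested) and inhibitory neuron (3 of 4) markers summed to 8215 to 9930 and 14352 to 16804, and dentate markers (2 of 3) to 615 to 796. No marker gene lay under the floor on all 4 arrays by the probe set summed, and the part of cell makeup in these differences was not tested.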

How the data were processed

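Total RNA of CA1 was measured on 4 single-channel arrays, 1 per hour. The authors deposited 1 intensity per probe set; the method of summarisation is not stated in the labels or headers. Per array, the deposited intensity values had a mean near 500.3 after trimming 2% at each end, so arrays appear scaled to a common level. The 66 control probe sets were left out, and 10833 of 12488 had 1 gene symbol in the platform's table; all 42 matched genes were found in RefSeq by Entrez identifier with the same symbol.

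Values were floored, log2 transformed and filtered as stated above. A line over the hours was fitted with limma 3.58.1 (R 4.3.3) to 7453 probe sets, leaving 2 residual degrees of freedom. The two-sided p-values were adjusted by Benjamini-Hochberg. The fit was run on simulated data with slopes steeper than any proteasome slope here and variances drawn from limma's own prior. That run cannot show whether slopes of the size seen here would be called. No label says that arrays hold separate animals, so p-values reflect only their scatter about the fitted line, possibly technical. Fold changes are on the floored scale. The number of arrays limits the precision. Members, classes and lists were chosen with earlier results of these data known. All members are named; values on each array are given for catalytic, immune and activator genes, the extremes of each class, ordered or outlying probe sets, and the smallest p-values. Alternatives were scaling, floor, filter, 1 probe set per gene, left-out arrays, time scale, variance prior and distance.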

Additional observations from a re-analysis of the deposited data

How the results depend on the processing

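No slope was called for any probe set under any alternative fit, and the smallest adjusted p of a proteasome probe set ran from 0.647 (no filter) to 1.00. No paired analysis was possible because each hour has 1 array. Scaling to a common array median moved class medians at 2 hr to 0.24 (alpha ring), 0.22 (beta ring), 0.28 (ATPases), 0.29 (lid), 0.44 (chaperones), 0.58 (activators) and 0.27 (all), the ATPases to -0.12 at 1 hr and -0.19 at 4 hr, and all members to 0.007 at 1 hr and -0.18 at 4 hr; ordered probe sets then numbered 1 rising and 1 falling. Quantile normalization gave the chaperones 0.38 at 2 hr. Without the filter 1 probe set stood apart, and medians at 6 hr were -0.0616 (beta ring) and 0.0607 (ATPases). A filter at the 60th percentile, which leaves fewer probe sets, gave the chaperones -0.0308, 0.0386, -0.24 and 0.23 at 1, 2, 4 and 6 hr and the activators -0.14 at 6 hr. With 1 probe set per gene the ATPases lay at -0.19 at 1 hr and 0.28 at 2 hr. At 1.5-fold, 4 probe sets stood apart.

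Leaving out each array gave 0 to 1 probe sets standing apart, 5 to 8 rising and 8 to 10 falling, where 3 arrays leave fewer orders. ATPase medians ran from -0.14 to 0.0058 at 1 hr, 0.0591 to 0.17 at 2 hr, -0.18 to 0.0245 at 4 hr (highest without 2 hr) and -0.12 to 0.0604 at 6 hr, the beta ring from -0.11 to 0.0474 at 6 hr and the chaperones from -0.34 to 0.15 at 6 hr. The slope of the dimmest Psmd11 probe set ran from -0.19 to 0.0318, highest without 6 hr. The causes were not tested.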
